A study of Mus musculus with 2 samples.

Results

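Tumour cells that carried the most RNA of Fbxl7, Plxdc1, Pdzrn3, Tmem117 and B4galnt2 were described in subcutaneous MC38 tumours. MC38 is a mouse colon adenocarcinoma line. Cells were first gated as tumour cells by at least 3000 UMIs (unique molecular identifiers, each standing for 1 captured RNA molecule), at most 15% mitochondrial UMIs, at least 5 UMIs of Hmga2, Sox9, Tafa1 and Hoxa9 together, and no UMI of Ptprc, the pan-leukocyte gene CD45. The members were the top 10% of the gated cells of both libraries together by their UMIs of the 5 genes per 10000 UMIs. They numbered 1980 of 19796 gated cells, and of 28346 cell barcodes in all. The rule used measured values, so the levels of the 5 choosing genes and of the gate genes in the members are a description, and the other genes come from the same cells.

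The study compared tumours of MC38 cells transduced by lentivirus with SPP1, which encodes osteopontin, or with a vector. Both were stable cell pools grown under the skin of C57BL/6 mice of genotype WT, and both mice received anti-PD-1 antibody at 10 mg/kg, 2 times a week for 2 weeks from day 7. The sources used here do not give the age or sex of the mice. The tumour of 1 mouse per group was dissociated and sequenced as single cells, so each group is 1 library and no test across mice is possible. Cells of a library are not replicates, and every interval below covers counting error only. A difference between the libraries cannot be told apart from a difference between 2 mice, tumours or preparations.

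The 5 genes do not belong to 1 known pathway. Fbxl7 encodes an F-box protein with leucine-rich repeats, a substrate receptor of SCF ubiquitin ligases, which tag proteins for degradation. Plxdc1, also called tumour endothelial marker 7, encodes a plexin-domain membrane protein best known from tumour vessels. Pdzrn3 encodes a ubiquitin ligase with RING and PDZ domains that acts in Wnt and planar polarity signalling. Tmem117 encodes a multipass membrane protein. B4galnt2 encodes the glycosyltransferase that adds N-acetylgalactosamine to sialylated chains to make the Sda antigen, a carbohydrate known from the gut epithelium.

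Promoters are shown for the choosing gene that set the members most apart, Fbxl7, and for the one that gave the most UMIs, B4galnt2. They are the 250 bases before and 50 after the start of the gene as RefSeq places it on GRCm38.p6, an older build than the GRCm39 of the counts. Capitals mark matches to the motifs named after them.
Fbxl7: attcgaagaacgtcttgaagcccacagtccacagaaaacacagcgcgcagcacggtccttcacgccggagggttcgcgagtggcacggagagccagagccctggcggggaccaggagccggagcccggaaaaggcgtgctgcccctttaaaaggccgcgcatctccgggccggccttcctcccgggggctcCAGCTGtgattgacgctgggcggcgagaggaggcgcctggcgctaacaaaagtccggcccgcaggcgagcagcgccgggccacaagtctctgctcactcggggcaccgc
B4galnt2: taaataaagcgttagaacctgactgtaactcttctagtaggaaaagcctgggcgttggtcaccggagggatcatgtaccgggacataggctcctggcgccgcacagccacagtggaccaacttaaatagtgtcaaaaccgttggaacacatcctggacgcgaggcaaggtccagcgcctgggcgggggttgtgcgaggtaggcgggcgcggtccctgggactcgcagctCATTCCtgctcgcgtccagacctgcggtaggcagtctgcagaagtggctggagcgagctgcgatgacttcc
The Fbxl7 window lies at chr15:26895515-26895814 and the B4galnt2 window at chr11:95914822-95915121, both on the minus strand. Of 6 motifs searched on both strands, the Fbxl7 window held 1 E-box (CANNTG), which 72.3% of the 32851 RefSeq promoter windows also held. The B4galnt2 window held 1 TEAD motif (GGAATG), held by 14.7% of all windows. Neither held an AP-1 motif, spelled TGANTCA, or a TATA motif, spelled TATAAA. Neither held the SOX letters ACAAT or the RUNX letters TGTGGT, and the Pdzrn3 window held none of the 6. The Tmem117 window held 2 E-boxes and 1 TATA motif. No match was common to the 4 windows, and their GC content was 67.7% for Fbxl7, 68.7% for Pdzrn3, 78.0% for Tmem117 and 59.0% for B4galnt2, against a median of 52.7% over all windows. A match is a run of letters and not a binding site.

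The libraries were close in depth. The library labelled SPP1 held 14029 barcodes with 164599332 UMIs and a median of 10218 UMIs, and the library labelled vector 14317 barcodes with 164247003 UMIs and a median of 10277. They shared 93 barcodes, 7 of them among the members of each library, and no shared barcode was a member in both. Spp1, the gene named by the labels, was not higher in the tumour cells of the library labelled SPP1, where the other gated cells had 122.0 CPM (UMIs of the gene per 1000000 UMIs of the summed cells) against 128 CPM in the library labelled vector. Cells with Ptprc and without gate genes had 3234 and 2272 CPM in the libraries labelled SPP1 and vector. The part of leukocyte RNA in the level of the gated cells was not tested. The sources used here do not say whether RNA of the transduced construct would be counted as mouse Spp1, so the libraries are called by their labels throughout.

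The gated cells carried more mesenchymal than epithelial RNA, although MC38 is a colon adenocarcinoma line. Of 14 epithelial genes (Epcam, Cdh1, keratins, claudins and others), Krt14 alone reached 20 CPM in both libraries, while 12 of 15 mesenchymal genes did. Members kept the gate genes at close to the level of the other gated cells, at -0.20 to 0.20 on the log2 scale for Hmga2, Sox9 and Hoxa9. Tafa1, a secreted chemokine-like protein of the nervous system, stood lower, at 638 CPM in members and 1061 CPM in other gated cells of the library labelled SPP1, and at 390.4 and 811 CPM in the library labelled vector.

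Markers of host cells were measured in the members. The 11 macrophage and monocyte markers summed to 65.2 CPM in members and 77.2 CPM in other gated cells of the library labelled SPP1, and to 49.7 and 54.9 CPM in the library labelled vector. T and NK cell markers summed to 2.25 and 1.86 CPM in the members of the libraries labelled SPP1 and vector, and endothelial markers to 9.12 and 6.93 CPM. Of the 8 endothelial markers, 5 were detected in members of the library labelled SPP1 and 7 in members of the library labelled vector, with Pecam1 highest, at 4.88 and 3.09 CPM, and Egfl7 at 0 in both. Pericyte and smooth muscle markers summed to 52.6 CPM in members and 43.4 CPM in other gated cells of the library labelled SPP1 (log2 ratio 0.28), and to 52.5 and 44.1 CPM in the library labelled vector (0.25), most of it Cspg4. Dendritic cell markers summed to 122 CPM in members and 133 CPM in other gated cells of the library labelled SPP1, and to 136 and 140 CPM in the library labelled vector, most of it Fscn1, with Xcr1, Clec9a and Ccr7 at 0 in the members of both. The fibroblast markers summed to 1099 CPM in members and 2098 CPM in other gated cells of the library labelled SPP1, and to 891 and 1736 CPM in the library labelled vector. Most of that sum came from Dcn and Gsn, which the gated cells carried as a whole. Cells with at least 3 UMIs of Lum, Col15a1 and Cxcl12 together, called fibroblast-marker cells below, numbered 11 of 986 members and 81 of 9205 other gated cells in the library labelled SPP1, and 13 of 994 and 34 of 8611 in the library labelled vector. Predicted doublets made up 3.35% of members and 2.64% of other gated cells in the library labelled SPP1, and 2.11% and 1.88% in the library labelled vector.

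At the top 10%, members came from both libraries in like numbers. They were 986 of 10191 gated cells (9.68%, exact 95% binomial interval 9.11 to 10.3%) in the library labelled SPP1 and 994 of 9605 (10.3%, 9.75 to 11.0%) in the library labelled vector. The log2 ratio of the shares was -0.10 (95% interval -0.22 to 0.02), which includes no difference. The ratio depended on the threshold. It was -0.32 with the top 5% (455 and 535 cells in the libraries labelled SPP1 and vector), and 0.054 with the top 20% (2075 and 1884 cells). An interval is given for the top 10% only. Members were somewhat deeper cells, with medians of 13834 UMIs against 12120 in other gated cells of the library labelled SPP1, and 15146 against 12776 in the library labelled vector.

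The threshold ran through a continuous score and not through a gap. No UMI of the 5 genes was found in 66.0% of gated cells. The last cell inside had 1 UMI of the 5 genes among 4740 UMIs (2.11 per 10000), and the first outside had 5 among 23702, which is also 2.11 after rounding. Within 10% of the threshold lay 167 members and 212 other gated cells. The median score of members was 3.60 in the library labelled SPP1 and 3.97 in the library labelled vector, with highest scores of 34.2 and 40.6.

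**Figure D1:**
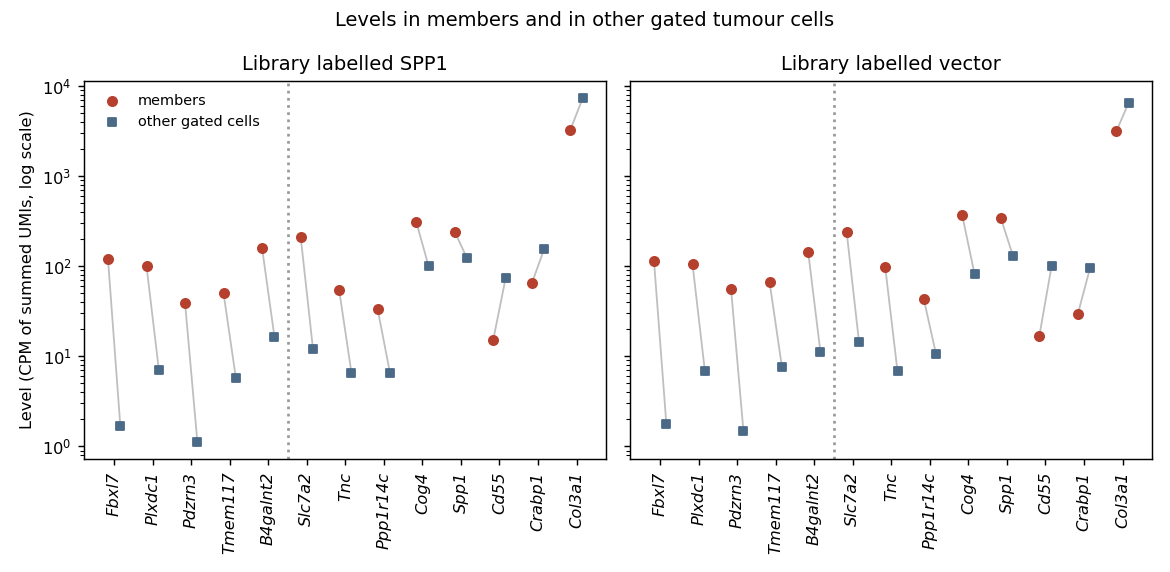
Levels of the 5 choosing genes (left of the dotted line) and of 8 other genes in members (circles) and other gated cells (squares) of each library, as CPM of summed UMIs on a log scale. Each grey line joins the values of 1 gene. The choosing genes lie far apart between the sets by construction, Slc7a2 lies less far apart than Fbxl7 and Pdzrn3, and Cd55, Crabp1 and Col3a1 lie lower in members in both libraries.

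B4galnt2 gave the most UMIs of the choosing genes and Fbxl7 the largest ratio. Fbxl7 was at 120 CPM in members and 1.70 CPM in other gated cells of the library labelled SPP1, and at 113 and 1.79 CPM in the library labelled vector. Plxdc1 was at 100.1 and 7.11 CPM in the library labelled SPP1 and at 104 and 6.87 CPM in the library labelled vector, with members named first here and below. The ubiquitin ligase gene Pdzrn3 was at 39.0 CPM in members and 1.12 CPM in other gated cells of the library labelled SPP1 (log2 ratio 5.12). In the library labelled vector Pdzrn3 was at 55.2 CPM in members, while the other gated cells held 186 UMIs of it in all (5.20). Tmem117 was at 49.8 and 5.71 CPM in the library labelled SPP1, and at 66.2 and 7.61 CPM in the library labelled vector. B4galnt2 was at 158 and 16.5 CPM in the library labelled SPP1, and at 145 and 11.1 CPM in the library labelled vector. The name of Fbxl7 and Plxdc1 therefore covers only some of the members. Fbxl7 was found in 44.4% and 46.0% of the members of the libraries labelled SPP1 and vector, Plxdc1 in 49.6% and 55.1%, and B4galnt2 in 62.6% and 60.6%.

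Few members carried all 5 genes. At least 2 were found in 67.5% of members of the library labelled SPP1 and 76.2% of the library labelled vector, at least 3 in 35.8% and 45.9%, and all 5 in 26 and 49 cells. A single choosing gene put 320 and 237 cells into the members. These were shallower cells, with medians of 8757 and 8574 UMIs, against 24920 and 24428 UMIs for the cells with all 5.

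The choosing genes were picked as a group on these data, so the following values describe how they lay together and support nothing. When 1 gene was left out and the top 10% were chosen again by the other 4, the left-out gene still stood higher in the chosen cells in both libraries. Fbxl7, which the other 4 did not use, was at 70.4 CPM in the cells they chose and 7.59 CPM in the rest of the library labelled SPP1 (log2 ratio 3.22, 95% interval 3.09 to 3.34), and at 73.6 and 7.12 CPM in the library labelled vector (3.37, 3.24 to 3.50). The left-out log2 ratio was 2.87 and 3.21 for Pdzrn3, 2.44 and 2.76 for Plxdc1, and 2.18 and 2.40 for Tmem117 in the libraries labelled SPP1 and vector. It was lowest for B4galnt2, at 1.59 and 2.29. Across single gated cells, the Pearson correlations between the choosing genes were weak. They ran from 0.05 (Pdzrn3 with B4galnt2) to 0.28 (Fbxl7 with Pdzrn3) over 10191 cells of the library labelled SPP1, and the same pairs gave 0.10 and 0.33 over 9605 cells of the library labelled vector.

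Free RNA from broken cells gives UMIs in cells that do not express a gene. At 3000 UMIs drawn from every cell, a UMI of Fbxl7 was found in 23.3% of members and 0.391% of other gated cells of the library labelled SPP1 (44.4% and 1.93% before thinning), and in 21.5% and 0.441% of the library labelled vector. Among cells with Ptprc and without gate genes it was found in 0 of 292 (exact interval 0 to 1.26%) and 1 of 455 in the libraries labelled SPP1 and vector. The thinned share of Plxdc1 was 22.4% in members and 1.69% in other gated cells of the library labelled SPP1, but 4.79% in its Ptprc-positive cells. In the library labelled vector it was 24.2% in members, 1.57% in other gated cells and 3.96% in Ptprc-positive cells. The share of Plxdc1 was lower in other gated cells than in Ptprc-positive cells, but the rule itself lowers it. The rule took the cells with the most UMIs of the 5 genes out of the other gated cells and not out of the Ptprc-positive cells. Shares of the choosing genes in members, other gated cells and Ptprc-positive cells therefore differ in part by construction. Whether leukocytes carried Plxdc1 RNA of their own was not tested, so the Ptprc-positive cells do not measure its background. B4galnt2 was found in 3.91% of other gated cells and 4.11% of Ptprc-positive cells of the library labelled SPP1 after thinning, and in 2.68% and 1.32% (exact interval 0.485 to 2.85%) of the library labelled vector. The Ptprc-positive cells had median depths of 7216 and 7554 UMIs before thinning.

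Outside the choosing and gate genes, 6848 genes had at least 20 CPM in members or in other gated cells of each library. Of these, 99 (1.45%) were at least 1.5-fold higher in members in both libraries, and 66 (0.964%) at least 1.5-fold lower. The median log2 ratio over all 6848 genes was 0.01 in the library labelled SPP1 and 0.03 in the library labelled vector. Since the members were chosen from these cells, the counts are a description with no test.

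**Figure D2:**
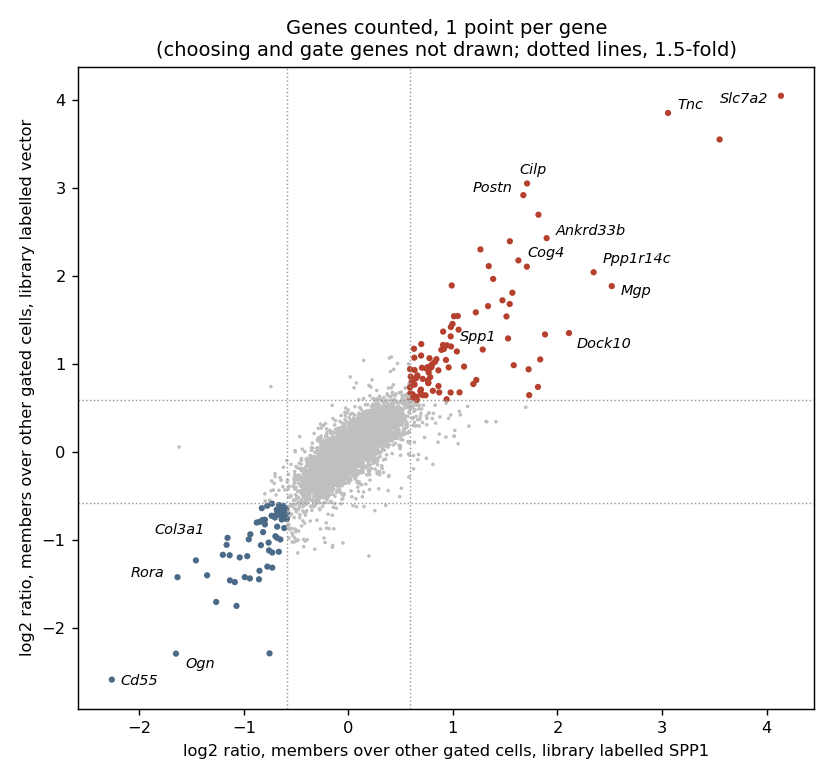
Log2 ratio of members over other gated cells for each counted gene, in the library labelled SPP1 (x axis) and in the library labelled vector (y axis). Red points are the 99 genes higher and blue points the 66 genes lower by 1.5-fold in both libraries, and dotted lines mark 1.5-fold. Slc7a2 lies farthest to the upper right and Cd55 farthest to the lower left.

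The gene set most apart was Slc7a2, which encodes CAT2, a transporter of arginine and other cationic amino acids. Slc7a2 was at 213 CPM in members and 12.1 CPM in other gated cells of the library labelled SPP1 (log2 ratio 4.14, 95% interval 4.05 to 4.23), and at 239 and 14.5 CPM in the library labelled vector (4.04, 3.96 to 4.12). It was found in 51.8% of members and 5.81% of other gated cells of the library labelled SPP1, and in 63.1% and 6.53% of the library labelled vector. The 3 members with the most Slc7a2 held 5.02% and 3.29% of its UMIs, so the ratio did not rest on a few cells. Leukocytes also carried Slc7a2, at 343 and 435 CPM in Ptprc-positive cells of the libraries labelled SPP1 and vector, and the part of leukocyte RNA in the level of members was not tested. With members chosen on one part of a random split of each cell's UMIs and genes measured on the other part, Slc7a2 was at 3.80 and 3.73. With members chosen on cells thinned to 3000 UMIs, which shared 1184 of the 1980 cells, its ratio nearer 0 was 2.81.

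Slc7a2 was also the gene whose pattern over single cells was most like the score of the 5 genes. Its Pearson correlation with the score was 0.47 over 10191 gated cells of the library labelled SPP1 and 0.53 over 9605 of the library labelled vector. After it came the transcript 9530026P05Rik (0.37 and 0.35), Cog4 (0.29 and 0.39) and the teneurin gene Tenm3 (0.27 and 0.27). Ppp1r14c, Rbms2, Ccnd1, Fam20b, Gm40323 and Gm56703 made up the first 10, at 0.20 to 0.32. These cells share libraries and differ in depth, and the values describe likeness alone.

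Several other genes stood higher in members, most of them found in a minority of the cells. The transcript 9530026P05Rik was at 59.8 CPM in members and 5.10 CPM in other gated cells of the library labelled SPP1 (log2 ratio 3.55), and at 43.5 and 3.73 CPM in the library labelled vector (3.55). Cog4, a subunit of the Golgi tethering complex COG, was at 311 CPM in members and 101 CPM in other gated cells of the library labelled SPP1 (1.63, 1.58 to 1.67), and at 366 and 81.2 CPM in the library labelled vector (2.17, 2.13 to 2.22). Cog4 was found in 77.5% of members and 57.4% of other gated cells of the library labelled SPP1, and in 81.2% and 51.5% of the library labelled vector. Ppp1r14c, an inhibitor of protein phosphatase 1, was at 33.1 and 6.51 CPM (2.35) in the library labelled SPP1 and at 43.4 and 10.6 CPM (2.04) in the library labelled vector. Ankrd33b stood at log2 ratios of 1.90 and 2.43 in the libraries labelled SPP1 and vector, the meiotic gene Msh5 at 1.57 and 1.81, and the RNA helicase gene Dhx37 at 1.51 and 1.54. The exchange factor gene Dock10 stood at 2.11 and 1.35, and Nwd1 at 1.34 and 2.11. Ankrd33b was found in 17.5% and 23.9% of the members of the libraries labelled SPP1 and vector, Dock10 in 20.5% and 19.2%, and Dhx37 in 28.2% and 30.9%.

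Neighbouring genes on the chromosome shared a few of these differences. Pdgfrl, next to Slc7a2 in RefSeq order, had ratios of 3.44 and 3.49 from 116 and 120 UMIs in members, which is too low to be counted. Fbxo47, next to Plxdc1, was at 1.78 and 2.00, and Fcsk, next to Cog4, at 0.92 and 1.21, both also too low to be counted. In contrast, Ppp4r2 next to Pdzrn3 was at 0.02 and 0.01, and Igf2bp1 next to B4galnt2 at 0.00 and 0.09. Arl5c, on the other side of Plxdc1, was at -1.35 and -0.70 from 4 and 8 UMIs in members. Sf3b3, on the other side of Cog4, was at 0.23 and 0.33. Medians over 57 blocks of 100 neighbouring genes ran from -0.12 to 0.14 in the library labelled SPP1 and from -0.20 to 0.23 in the library labelled vector. No block was near 1.5-fold.

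The matrix genes Postn, Mgp and Cilp were high in members through few cells, and Tnc only in part. Tnc, the matricellular glycoprotein tenascin C, was at 54.2 CPM in members and 6.51 CPM in other gated cells of the library labelled SPP1 (3.06), and at 97.7 and 6.79 CPM in the library labelled vector (3.85), but 3 cells held 42.4% and 42.7% of the members' UMIs. Tnc stood at 2.47 and 3.14 without the 3 highest cells of each set, and its ratio nearer 0 was 1.72 without the fibroblast-marker cells. It was found in 11.5% of members and 4.22% of other gated cells of the library labelled SPP1, and in 21.3% and 4.70% of the library labelled vector. Postn, which encodes periostin, was at log2 ratios of 1.67 and 2.91 in the libraries labelled SPP1 and vector. It was found in fewer members than other gated cells, 6.69% against 12.2% in the library labelled SPP1 and 4.23% against 8.55% in the library labelled vector. The calcification inhibitor gene Mgp stood at 2.52 and 1.88 and the cartilage matrix gene Cilp at 1.71 and 3.05, with 55.9% to 69.1% of the members' UMIs of both in 3 cells. Without the fibroblast-marker cells the ratios turned to -0.22 for Mgp, -1.11 for Cilp and -1.58 for Postn, each in the library nearer 0.

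Spp1 was higher in members, at 240.7 CPM against 122.0 CPM in other gated cells of the library labelled SPP1 (0.98, 0.93 to 1.03), and at 343 against 128 CPM in the library labelled vector (1.42, 1.37 to 1.46). In the library labelled vector 3 cells held 22.4% of the members' UMIs of Spp1, and leaving out the 3 highest cells of each set gave 1.08. Leaving out the fibroblast-marker cells there took Spp1 from 489 to 275 CPM in members with scores of 5 to 10. At 10 and above it went from 842 to 214 CPM. Members with scores of 3 to 5 stayed at 236 CPM, and those from the threshold to 3 were at 245 and 247 CPM. Spp1 was found in 60.8% of members and 41.0% of other gated cells of the library labelled SPP1, and in 59.2% and 43.2% of the library labelled vector. Leukocytes carried far more Spp1, at 3234 and 2272 CPM in Ptprc-positive cells of the libraries labelled SPP1 and vector. The part of leukocyte RNA in these levels was not tested. The osteopontin receptor gene Cd44 was level, at 1192 and 1248 CPM in the library labelled SPP1 and at 1262 and 1272 CPM in the library labelled vector. None of the 5 osteopontin receptor genes counted passed 1.5-fold in both libraries. Cd274, which encodes the PD-1 ligand PD-L1, was at 24.8 CPM in members and 17.3 CPM in other gated cells of the library labelled SPP1 (0.52), and at 22.5 and 19.3 CPM in the library labelled vector (0.22), below 1.5-fold in both.

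Among lower genes, Cd55 stood farthest out. It encodes decay-accelerating factor, a membrane protein that restrains complement. Cd55 was at 15.3 CPM in members and 73.7 CPM in other gated cells of the library labelled SPP1 (-2.26, -2.45 to -2.08), and at 16.8 and 101 CPM in the library labelled vector (-2.59, -2.77 to -2.41). It was found in 11.6% of members and 30.5% of other gated cells of the library labelled SPP1, and in 10.9% and 40.2% of the library labelled vector. Crabp1, which encodes a retinoic acid binding protein, was at 64.5 and 155 CPM (-1.26) in the library labelled SPP1 and at 29.6 and 96.5 CPM (-1.71) in the library labelled vector. The nuclear receptor gene Rora was at -1.63 and -1.42, the co-receptor gene Ramp2 at -1.46 and -1.23, and the zinc finger homeobox gene Zfhx4 at -1.09 and -1.48 in the libraries labelled SPP1 and vector. Islr, which encodes the stromal surface protein meflin, was at -1.07 and -1.75.

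Col3a1 and several small leucine-rich proteoglycan genes were lower. Col3a1, the fibrillar collagen III chain, was at 3257 CPM in members and 7303 CPM in other gated cells of the library labelled SPP1 (-1.17), and at 3141 and 6537 CPM in the library labelled vector (-1.06). The collagen crosslinking enzyme gene Loxl2 was at -1.35 and -1.40. The basement membrane chains went the other way, with Col4a1 at 83.8 against 48.3 CPM (0.80) in the library labelled SPP1 and 93.9 against 48.2 CPM (0.96) in the library labelled vector, and Col4a2 at 0.69 and 0.71. Of 16 collagen and collagen processing genes counted, 2 were higher and 2 lower by 1.5-fold in both libraries, with medians of -0.27 and -0.22. Of the 6 small leucine-rich proteoglycan and elastic fibre genes counted, 3 were lower and 0 higher, with medians of -0.49 and -1.09. Ogn, which encodes osteoglycin, was at -1.65 and -2.29, Dcn, which encodes decorin, at -1.04 and -1.20, and Aspn, which encodes asporin, at -0.75 and -2.29. The cells among the top 10% of gated cells for collagen RNA made up 2.74% of members and 11.0% of other gated cells of the library labelled SPP1, and 2.31% and 10.7% of the library labelled vector.

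Several immediate early genes were also lower. Of 16 counted, 5 were lower and 0 higher by 1.5-fold in both libraries, with medians of -0.42 in the library labelled SPP1 and -0.61 in the library labelled vector. The antiproliferative gene Btg2 was at 63.8 CPM in members and 140.0 CPM in other gated cells of the library labelled SPP1 (-1.13), and at 53.7 and 148 CPM in the library labelled vector (-1.46). The AP-1 subunit gene Fosb was at -0.76 and -1.12 and Junb at -0.59 and -0.77, the orphan receptor gene Nr4a1 at -0.67 and -1.14, and Ier2 at -0.63 and -0.65. These genes also respond to tissue dissociation, and the part of dissociation was not tested. In the NF-kB list 1 of 10 genes was lower, Tnfaip3, at -0.95 and -0.99. In the TGF-beta list 1 of 10 was lower, the helix-loop-helix inhibitor gene Id3, at -1.20 and -1.17.

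Growth factor genes of the PDGF and FGF families had 3 of 9 counted genes lower and 0 higher. The ligand gene Pdgfc was at 35.0 CPM in members and 76.9 CPM in other gated cells of the library labelled SPP1 (-1.14), and at 14.3 and 32.4 CPM in the library labelled vector (-1.18). The receptor gene Pdgfra was at -0.64 and -0.66 and the feedback inhibitor gene Spry2 at -0.68 and -0.85. Pdgfra is also the 1 of 12 mesenchymal genes that passed. Ccn1, the matricellular protein CYR61, was at -0.82 and -0.91, and was the 1 of 9 YAP/TEAD genes that passed and the 1 of 8 matricellular genes that was lower. Tnc, Postn and Spp1 were the 3 that were higher. The median of the matricellular list was -0.04 and 0.34, and it turned to -0.30 in the mean of both libraries without the fibroblast-marker cells.

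Genes of DNA synthesis stood slightly higher as a group. All 17 S phase genes counted had a log2 ratio above 0 in both libraries, with medians of 0.41 and 0.44. Of all 6848 genes counted, 3551 and 3780 were above 0 in the libraries labelled SPP1 and vector. Only 1 of the S phase genes, Clspn, a checkpoint mediator, passed 1.5-fold in both (0.59 and 0.61). Cells in the top 10% of gated cells for S phase RNA made up 14.1% of members and 8.06% of other gated cells of the library labelled SPP1, and 19.4% and 10.5% of the library labelled vector. The 22 G2/M genes had medians of 0.41 and 0.15, with 0 past 1.5-fold either way, and Top2a at 0.61 and 0.52. Glycolysis genes had medians of 0.27 and 0.20, with Pgk1 at 0.67 and 0.53, and sterol synthesis genes 0.35 and 0.25, with Idi1 at 0.57 and 0.63. In neither list did a gene pass 1.5-fold in both libraries.

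Pathway relatives of the choosing genes were counted in the same way. Over all counted genes 1.45% were higher and 0.964% lower by 1.5-fold in both libraries. At these shares a short list holds few such genes, so a count of 0 sets no list apart. Of 14 counted genes of the SCF ligase and the Fbxl family, 0 were past 1.5-fold, with medians of 0.06 and 0.04. Of 8 plexin, semaphorin and plexin-domain genes 0 passed, with medians of -0.19 and -0.22. The same held for 6 planar polarity genes, with medians of 0.07 and -0.06, although Prickle1 was at 0.08 and 0.78. Among 10 genes of GalNAc transfer and sialylation 1 was higher and 0 lower. This was St6gal1, which adds alpha-2,6-linked sialic acid, at 101 CPM in members and 43.4 CPM in other gated cells of the library labelled SPP1 (1.22), and at 150.3 and 50.2 CPM in the library labelled vector (1.58). Among 6 Wnt genes Tcf7 was higher, at 0.76 and 0.78. In the lists of hypoxia, heat shock, unfolded protein response, p53, cartilage and bone, neural, Hox and nuclear-retained genes, no counted gene was past 1.5-fold in both libraries, and no skeletal muscle gene was counted.

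**Figure D3:**
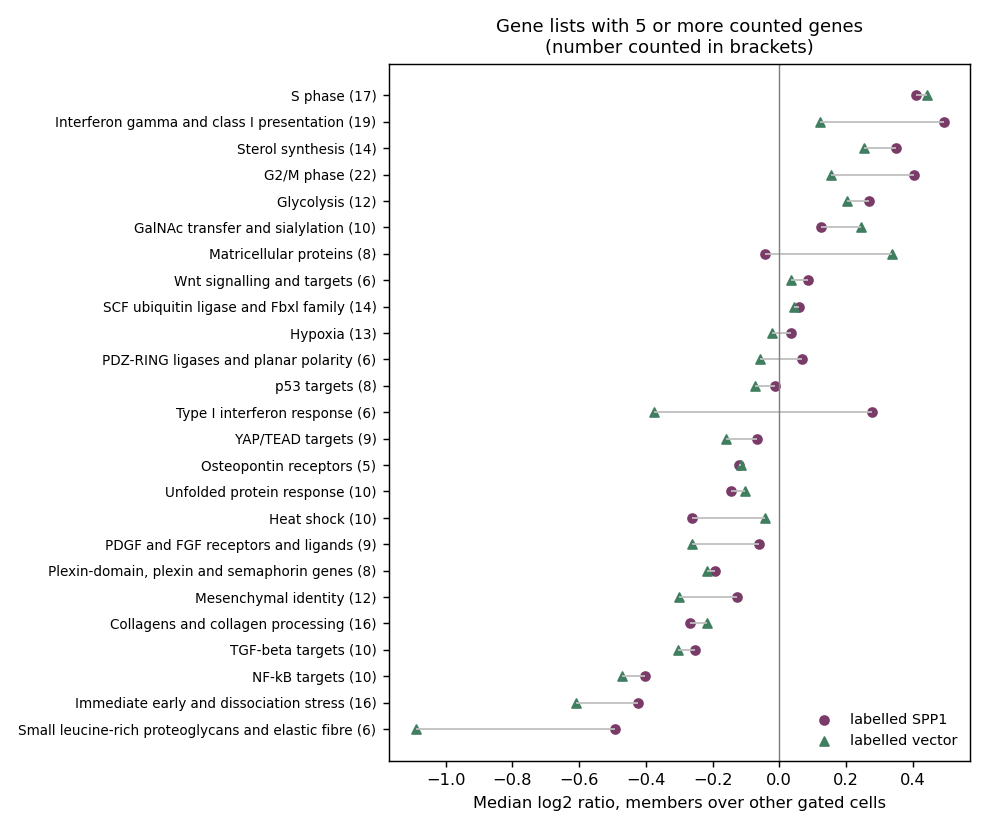
Median log2 ratio of members over other gated cells for each gene list with at least 5 counted genes, with circles for the library labelled SPP1 and triangles for the library labelled vector and the number of genes counted in brackets. S phase genes lie highest in the library labelled vector, interferon gamma and class I genes in the library labelled SPP1, and small leucine-rich proteoglycan genes lowest in both. Type I interferon genes lie on opposite sides of 0, at 0.28 and -0.38.

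Levels also ran with the score within and below the members. Slc7a2 was at 5.07 CPM in cells with no UMI of the 5 genes in the library labelled SPP1 and at 364 CPM in cells at or above 10 per 10000, and at 5.18 and 417 CPM at the same ends in the library labelled vector. It stood at 118 and 184 CPM in the members nearest above the threshold and at 43.9 and 63.9 CPM in the other gated cells nearest below it, and was found in 33.5% and 51.0% of the cells above and 15.5% and 22.5% of the cells below, in the libraries labelled SPP1 and vector. Cd55 was at 91.9 CPM at score 0 and 2.35 CPM at 10 and above in the library labelled SPP1, and at 126 and 2.47 CPM in the library labelled vector. Much of the difference in Col3a1 lay among the other gated cells, at 9016 CPM for score 0 and 4314 CPM for scores above 0 and under 1 in the library labelled SPP1, and 8038 and 3481 CPM in the library labelled vector. Dcn, Ogn, Ramp2 and Cd55 also fell between these classes. Dcn was at 1418 and 645 CPM in the library labelled SPP1, and at 1090 and 404 CPM in the library labelled vector. In the same order, Ogn was at 59.7 and 18.4, and 59.8 and 15.2 CPM. Ramp2 was at 75.9 and 32.2, and 75.1 and 30.4 CPM, and Cd55 at 91.9 and 40.4, and 126 and 55.9 CPM. Those classes also differ in depth, with medians of 10981 and 19122 UMIs in the library labelled SPP1, and the part of depth was not tested.

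**Figure D4:**
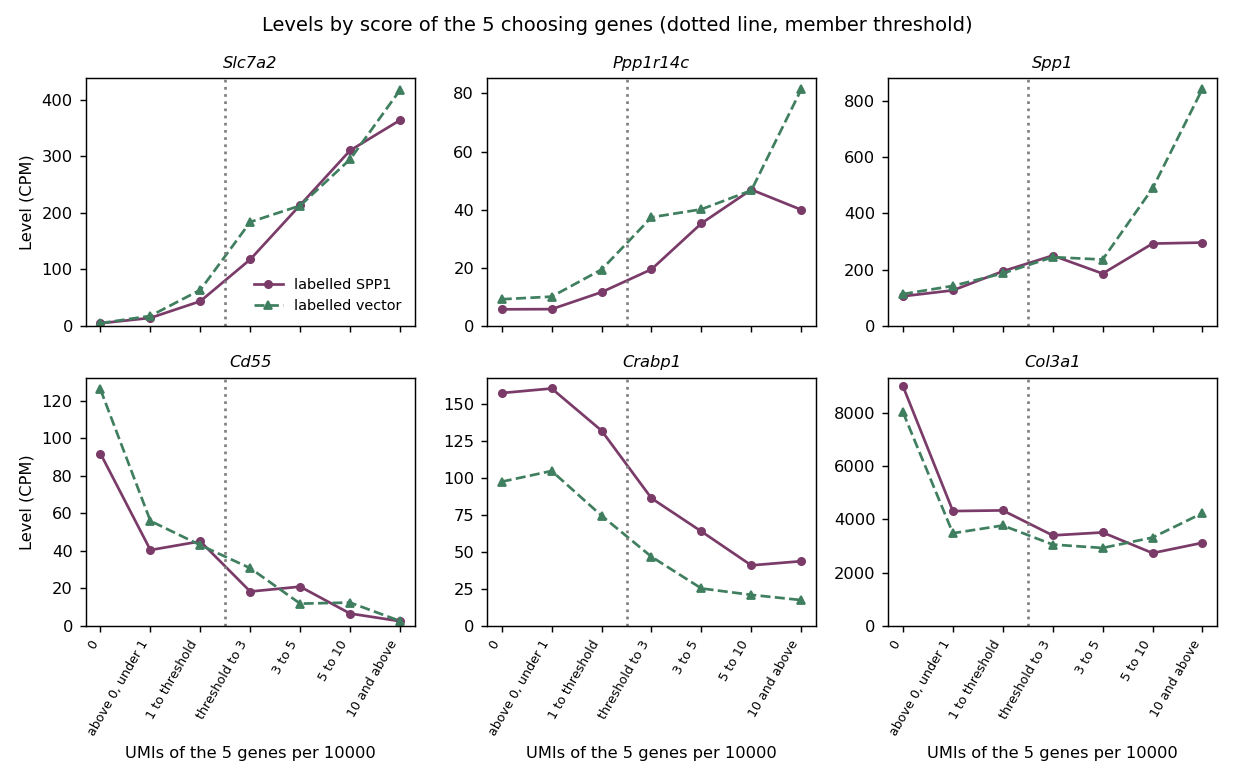
Level (CPM of summed UMIs) of 6 genes in 7 classes of gated cells by UMIs of the 5 choosing genes per 10000, with circles for the library labelled SPP1 and triangles for the library labelled vector. The dotted line is the threshold for members. Slc7a2 and Ppp1r14c lie higher and Cd55 and Crabp1 lower toward high scores in both libraries, and Spp1 reaches 842 CPM in the 57 highest cells of the library labelled vector, or 214 CPM without the 3 fibroblast-marker cells among them.

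Members differed among themselves by the choosing gene that gave most of their UMIs. B4galnt2 led in 334 and 273 members of the libraries labelled SPP1 and vector, Fbxl7 in 207 and 200, Plxdc1 in 185 and 209, Pdzrn3 in 67 and 83, and Tmem117 in 67 and 98. Slc7a2 was lowest where B4galnt2 led, at 95.6 and 162 CPM, found in 27.2% and 44.7% of those cells. Where Fbxl7 led it was at 372 and 307 CPM, found in 82.6% and 79.5%. Cells led by Pdzrn3 had Col3a1 at 9414 and 11761 CPM in the libraries labelled SPP1 and vector, above the level of the other gated cells, and Tnc at 617 and 797 CPM. Without the fibroblast-marker cells, of which 7 and 9 were in this class, their Col3a1 was at 8566 and 8624 CPM and their Tnc at 63.3 and 121 CPM. Cells led by B4galnt2 had Col3a1 at 2119 and 1413 CPM. The members were thus not uniform in matrix genes, and the low average of Col3a1 did not hold for the cells led by Pdzrn3.

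Between the libraries, 7050 genes with at least 20 CPM in the members of either were compared. The ratio is that of members in the library labelled SPP1 over members in the library labelled vector. Of these genes 42 (0.596%) were higher and 8 (0.113%) lower by more than 1.5-fold, with an interval that excludes 1.5-fold. Of the 42, 15 also passed in the other gated cells and 32 had the same sign there, and of the 8, 4 passed and 6 had the same sign. The choosing genes differed little between members of the libraries, from -0.50 for Pdzrn3 to 0.13 for B4galnt2, and Slc7a2 was at -0.16 (-0.23 to -0.09).

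Cd74, H2-Ab1 and Cxcl9 were higher in members of the library labelled SPP1 than in members of the library labelled vector. Cd74, the class II invariant chain, was at 308 CPM in members of the library labelled SPP1 and 132.0 CPM in members of the library labelled vector (1.22, 1.15 to 1.30), whereas the other gated cells were at 123 and 104 CPM (0.24, 0.21 to 0.27). The class II chain gene H2-Ab1 was at 133 and 69.8 CPM in members (0.94, 0.83 to 1.04) and at 64.5 and 65.5 CPM in other gated cells (-0.02, -0.07 to 0.02). Cxcl9, a chemokine gene induced by interferon gamma, was at 128 and 48.5 CPM in members (1.40, 1.28 to 1.52) and at 39.6 and 34.2 CPM in other gated cells (0.21, 0.15 to 0.27). Cxcl9 stood at 0.58 without the cells in the top 25% of S or G2/M phase RNA. Of 7 type I interferon genes 3 were higher and 0 lower in members of the library labelled SPP1, namely Isg15 (1.32), Rsad2 (2.15) and Ifit1 (1.47), with list medians of 0.51 in members and -0.02 in other gated cells. Ifit1 was found in 8.01% and 5.53% of the members of the libraries labelled SPP1 and vector. In each, 3 cells held 33.8% and 40.7% of the members' Ifit1 UMIs, and 13.3% and 14.9% of their Isg15 UMIs. Of 19 interferon gamma and class I genes Cxcl9 alone passed, with medians of 0.22 and -0.21. The macrophage and monocyte markers, whose cells also carry class II RNA, summed to 65.2 CPM in members of the library labelled SPP1 and 49.7 CPM in members of the library labelled vector, and their part in these ratios was not tested.

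The caveolar coat gene Cavin2 was at 111 CPM in members of the library labelled SPP1 and 44.2 CPM in members of the library labelled vector (1.33, 1.20 to 1.46), against a ratio of 0.35 in other gated cells. The homeobox gene Rhox5 was at 99.8 and 42.4 CPM (1.24), with 0.16 in other gated cells, and the transcription factor gene Cebpd at 68.6 and 38.3 CPM (0.84), with 0.30. Crabp1 was at 64.5 and 29.6 CPM in members (1.12) and also passed in the other gated cells (0.68). Mgp was at 1.73 in members and 1.09 in other gated cells, but 3 cells held 65.0% and 69.1% of the members' UMIs. Lower in members of the library labelled SPP1 was the keratin gene Krt14, at 96.2 and 179 CPM (-0.90, -0.99 to -0.81), with nearly the same ratio in the other gated cells (-0.83). Tnc (-0.85) and Postn (-0.78) were lower too, each with 42.4% or more of the members' UMIs in 3 cells. Without the fibroblast-marker cells Postn turned to 1.18. Spp1 itself was at 240.7 CPM in members of the library labelled SPP1 and 343 CPM in members of the library labelled vector (-0.51), or -0.25 without the 3 highest cells of each. The Spp1 level of the library labelled vector also rested on fibroblast-marker cells. In members with scores of 5 to 10, leaving them out took Spp1 from 489 to 275 CPM there. In the library labelled SPP1 it went from 293 to 270 CPM.

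**Figure D5:**
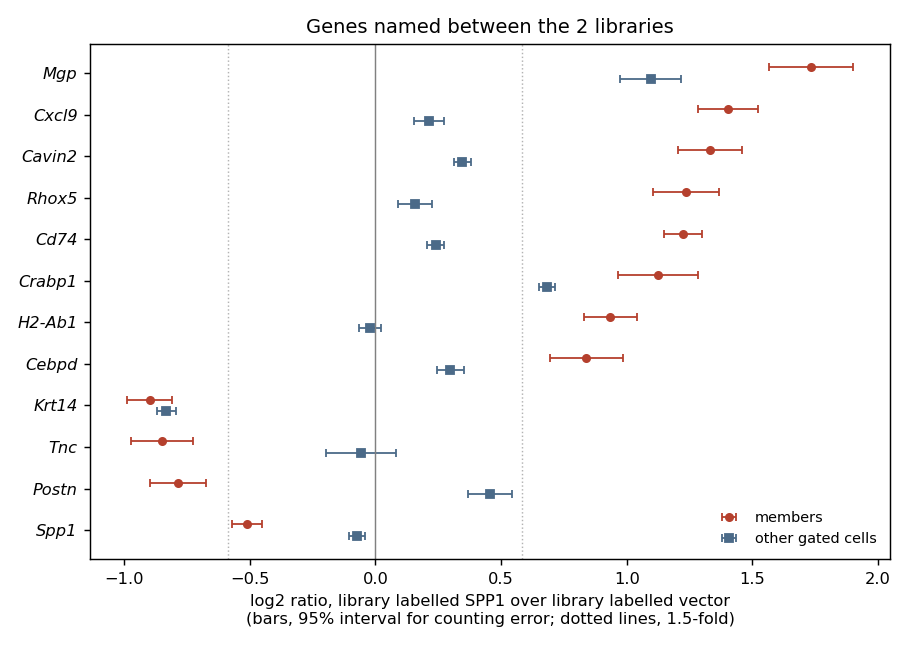
Log2 ratio of the library labelled SPP1 over the library labelled vector for the genes named between libraries and for Spp1, with circles for members and squares for other gated cells. Bars are 95% intervals for counting error and dotted lines mark 1.5-fold. Cxcl9, Cavin2, Rhox5, Cd74 and H2-Ab1 lie past 1.5-fold in members and inside it in other gated cells, and Krt14 lies past it in both.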

How the data were processed

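Single-cell RNA sequencing libraries of 2 tumours were analysed, 1 per group. The authors deposited a raw UMI count for each gene in each barcode, not normalized, made with Cell Ranger 2.1.1 on GRCm39 per the submitters' processing notes. The sources used here do not give the annotation release, how barcodes were taken as cells, or whether doublets or free RNA were removed before deposit. Such steps could change which barcodes and which low counts are present.

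Each table held 56941 genes. Symbols that name more than 1 gene, 147 in all, were left out of the lists. Groups came from the labels. Gate and members followed the rule given in the report, with no doublets removed. Scrublet's method (2 simulated doublets per cell, expected rate 0.06, 30 components, 2000 variable genes) marked 2.63% of 13956 cells in the library labelled SPP1 and 2.06% of 14243 in the library labelled vector, and their removal was an alternative. Counts were summed over the cells of a set in a library and given as CPM. Log2 ratios have exact conditional binomial intervals, shares exact Clopper-Pearson intervals and ratios of shares log intervals, all at 95% and for counting error only. The ratio step was tested on simulated data. No test across samples was possible.

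Named genes were the 12 with the largest and the 12 with the smallest ratio, ranked by the library nearer 0 and without clone names, and between libraries up to 8 each way with at least 100 UMIs and 50 CPM. The same ranking gave up to 4 genes from each of 31 lists, of which a part is given as examples, chosen after their values were seen, and the others are not reported here. Spp1, Cd44 and Cd274 were always named. Other genes, namely Junb, Isg15, Rsad2, Ifit1 and the chromosome neighbours, were chosen after their values were seen. The members and lists were chosen with earlier results of these data known. Alternatives changed the threshold, the depth, the choosing genes, the gate, doublets, cell cycle, scaling and the filter on low genes. Python 3.11.15, numpy 2.4.6, scipy 1.17.1 and pandas 2.3.3 were used.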

Additional observations from a re-analysis of the deposited data

How the results depend on the processing

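No paired analysis was possible because each group is 1 library and the labels give no replicate numbers. The log2 ratio of member shares was -0.32 for the top 5% of gated cells, 0.054 for the top 20% and -0.27 with B4galnt2 left out of the rule. The counts of genes higher and lower in members, 99 and 66, were 48 and 48 for the top 20%, 44 and 28 with members chosen on cells thinned to 3000 UMIs, 2254 and 558 with no filter on low genes, and 34 and 38 at a minimum of 50 CPM. Higher genes numbered 152 (73 of them among the 99) without the cells in the top 25% of S or G2/M phase RNA, and lower genes 42 with other cells weighted to the members' UMI deciles. Between libraries, 42 higher and 8 lower genes became 215 and 79 with no filter and 19 and 4 at 50 CPM. The lower genes numbered 5 with the thinned choice, without the 2% deepest cells, without fibroblast-marker cells and with each cell scaled to 10000 UMIs, and 19 without the cycling cells. Without fibroblast-marker cells, an alternative chosen after seeing the data, Mgp, Cilp and Postn in members against other gated cells turned to -0.22, -1.11 and -1.58. Postn between libraries turned to 1.18 in that setting, 0.068 with the thinned choice and 0.25 with Pdzrn3 left out of the rule. No other named gene past 1.5-fold turned its sign in both libraries under these settings. Signs came to differ between the libraries for Mgp and Cilp with Pdzrn3 left out of the rule, for Mgp with the thinned choice, and for Cilp and Postn at a gate of at least 10 UMIs. The causes were not tested. Depth limits the choice of members: at a median of 6 UMIs of the 5 genes per member, 1184 of the 1980 members were chosen again after thinning.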
